A study of Saccharomyces cerevisiae with 6 samples.

Results

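The genes described here encode 10 J-domain proteins of budding yeast that work in or face the cytosol: YDJ1, XDJ1 and APJ1 of class A, SIS1, CAJ1, DJP1 and HLJ1 of class B, and ZUO1, JJJ1 and SWA2 of class C. They were chosen by name, and each was read by the probe set that the platform annotation gives for it. All 10 were found, each with 1 probe set, among 5449 measured genes. Every array came from a strain in which SSE1 was deleted, the controls included. The 2 groups were cells that carried the yEVenus multi-copy plasmid, which encodes a yellow fluorescent protein, and cells that carried an empty plasmid, with 3 arrays from independent colonies in each. Both grew at 30 °C in leucine dropout SC-MSG medium and were harvested at an OD600 of 0.6. The labels do not name the promoter or the marker gene of the plasmids, and they give no batch. The study asked which genes respond to gratuitous protein production in a strain sensitised by the loss of SSE1.

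J-domain proteins are the partners that set Hsp70 chaperones to work. The J domain, marked by a conserved His-Pro-Asp motif, stimulates the ATPase of Hsp70, which then clamps onto a substrate, and a nucleotide exchange factor such as Sse1 lets the Hsp70 release it. Class A proteins carry a glycine and phenylalanine rich region and a zinc-binding domain beside the J domain, class B proteins lack the zinc-binding domain, and class C proteins share the J domain alone. Yeast cytosol holds several Hsp70 proteins and more kinds of J protein than of Hsp70, and the J proteins direct the Hsp70s to particular places and tasks.

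Expression was measured as log2 levels from RMA, a method that makes the value distributions of the arrays alike, so a difference is relative to the bulk of transcripts. A difference is the yEVenus mean minus the empty-plasmid mean, and a gene is said to have risen or fallen where the limma test gave a Benjamini-Hochberg adjusted p below 0.05 over all genes. With yEVenus, 6 of the 10 J-domain genes fell and 0 rose: CAJ1, DJP1, SWA2, YDJ1, ZUO1 and SIS1. At an unadjusted p below 0.05 in limma the counts were the same 6 and 0. Among all genes 41.0% fell and 29.3% rose. Changes in either direction, at 70.4% of all genes, were thus about as common as among these 10. Over all genes the surplus of falls over rises was smaller under other normalizations, as given at the end. The median log2 difference of the 10 genes was -0.28, against -0.0747 over all genes. The falls were small, between 1.18-fold for SIS1 and 1.5-fold for CAJ1, and 1 of the 10, CAJ1, fell by more than 1.2-fold when that minimum was tested in limma, as 16.6% of all genes did.

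**Figure D1:**
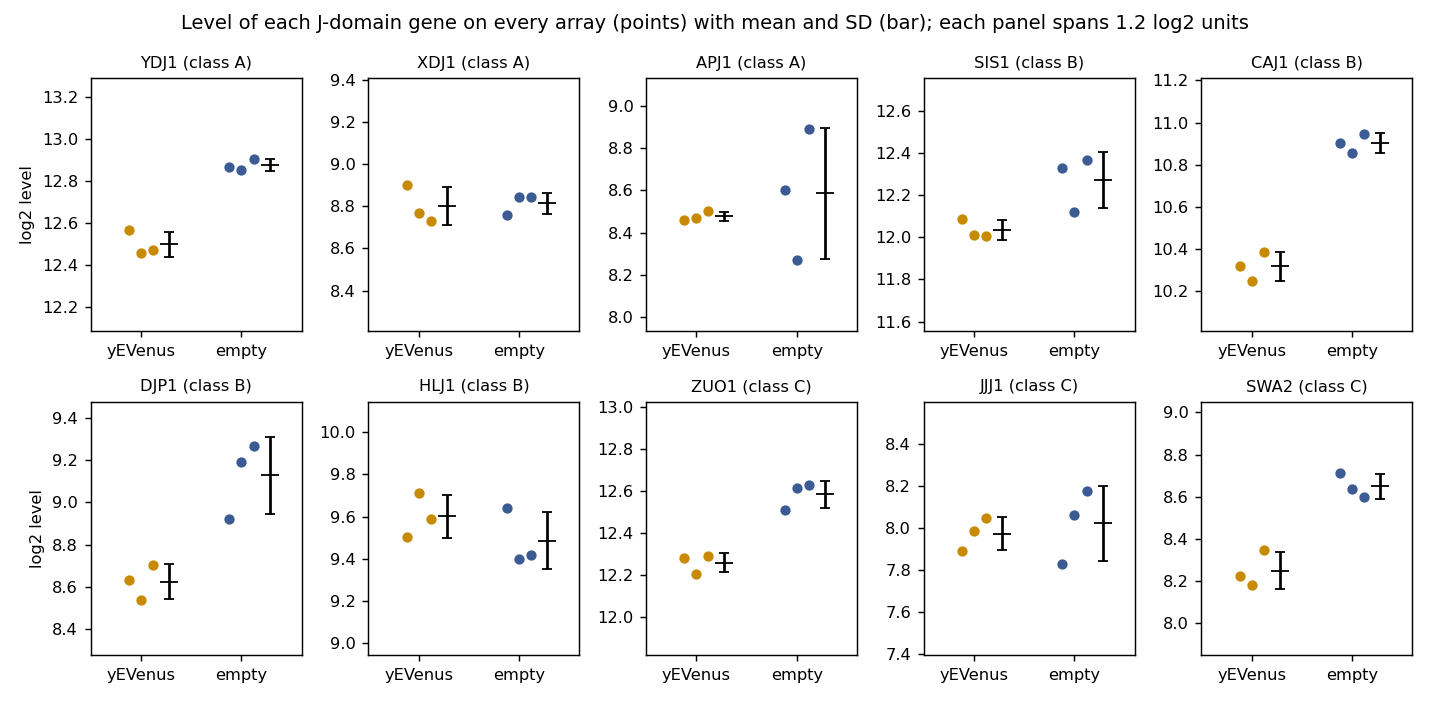
Log2 level (vertical axis) of each J-domain gene on every array, yEVenus plasmid at the left of each panel and empty plasmid at the right. Points are arrays, bars are the mean and SD of 3 arrays, and every panel spans the same range of log2 units. The groups are apart for YDJ1, SIS1, CAJ1, DJP1, ZUO1 and SWA2, and overlap for XDJ1, APJ1, HLJ1 and JJJ1.

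The deleted gene and the controls of the arrays came first. SSE1 had log2 levels of 3.09 to 3.23 on the yEVenus arrays and 3.02 to 3.24 on the empty-plasmid arrays, within the range of the array's no-target controls, the highest of which reached 4.32. The lowest level of any J-domain gene on any array was 7.83, for JJJ1, so all 10 were measured well above those controls. Arrays of 1 group correlated at 0.996 to 0.998 over all genes, and yEVenus with empty-plasmid arrays at 0.966 to 0.978. The gap between the 3' and the 5' probe sets of 7 yeast control genes, a measure of RNA integrity and labelling, averaged 2.43 to 2.56 log2 units on the yEVenus arrays and 1.80 to 1.86 on the empty-plasmid arrays (exact permutation test, two-sided, p = 0.1, the smallest that 3 against 3 allows). It was larger on every yEVenus array for 7 of the 7 genes. Differences also followed coding length, with a Spearman rho of -0.46 across all genes, which are not independent replicates. Each difference of the 10 genes is therefore also given with a loess trend on coding length removed from each array.

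Of the class A genes, YDJ1 fell. YDJ1 (YNL064C, chromosome XIV) encodes the major general J protein of the yeast cytosol, a farnesylated partner of the Ssa Hsp70s in folding and in protein import into organelles. Its log2 level was 12.57, 12.46 and 12.47 on the yEVenus arrays, against 12.87, 12.85 and 12.90 on the empty-plasmid arrays. The highest yEVenus value thus lay below the lowest empty-plasmid value, and neither group spread by as much as the distance between them. The log2 difference was -0.38 ± 0.0518 (SE; limma, adjusted p = 3.75e-04), or 1.30-fold lower. With the length trend removed it was -0.25 (limma, adjusted p = 0.00208).

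The other class A genes did not pass the test. XDJ1 (YLR090W, chromosome XII) encodes a close homologue of Ydj1 that has been found at the mitochondrial outer membrane. It had log2 levels of 8.90, 8.77 and 8.73 with yEVenus and 8.76, 8.84 and 8.84 with the empty plasmid. These groups overlapped, and the difference of -0.0137 had a 95% interval of -0.16 to 0.13 (limma, adjusted p = 0.853). It turned to 0.14 with the length trend removed (limma, adjusted p = 0.0578), and was also above 0 under median centring (0.0547), cyclic loess (0.082) and quantile normalization (0.0359).

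APJ1 (YNL077W, chromosome XIV) encodes a low-abundance class A protein linked to the turnover of aggregates in the nucleus. Its log2 levels of 8.46, 8.47 and 8.50 on the yEVenus arrays lay within the 8.60, 8.27 and 8.89 of the empty-plasmid arrays. The yEVenus colonies were nearly identical (SD 0.0225, n = 3) and the empty-plasmid colonies were far apart (SD 0.311, n = 3). The SD of APJ1 in the empty-plasmid group was larger than that of 97.9% of all genes. The difference was -0.11, with a 95% interval of -0.43 to 0.21 (limma, adjusted p = 0.489). It was 0.0581 with the length trend removed (limma, adjusted p = 0.734). The difference varied with the control colony left out. Without empty-plasmid replicate 2 it was -0.27 (limma, adjusted p = 0.027), and without empty-plasmid replicate 3 it was 0.0409 (limma, adjusted p = 0.732).

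Among the class B genes, SIS1, CAJ1 and DJP1 fell. SIS1 (YNL007C, chromosome XIV) is essential, and its protein works with the Ssa Hsp70s in translation, in moving misfolded proteins and in the propagation of prions. It had log2 levels of 12.09, 12.01 and 12.01 with yEVenus and 12.33, 12.12 and 12.37 with the empty plasmid. The groups were apart, but yEVenus replicate 1 lay close to empty-plasmid replicate 2. The difference of -0.24 ± 0.0731 (SE; limma, adjusted p = 0.0191) was the least firm of the 6. It lost the call with the length trend removed (-0.16, adjusted p = 0.0756), under median centring (-0.17, adjusted p = 0.0753) and without any 1 of 3 arrays: empty-plasmid replicate 3 (adjusted p = 0.0638), yEVenus replicate 2 (0.062) and yEVenus replicate 3 (0.0577), all in limma.

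CAJ1 (YER048C, chromosome V), which encodes a class B J protein, had the largest fall of the 10. Its log2 level was 10.32, 10.25 and 10.38 on the yEVenus arrays, against 10.91, 10.85 and 10.95 on the empty-plasmid arrays. Every yEVenus array was lower than every empty-plasmid array by over 0.4 log2 units. The difference was -0.59 ± 0.0556 (SE; limma, adjusted p = 6.30e-05), and 8.72% of all genes had a lower one. It was -0.47 with the length trend removed (limma, adjusted p = 2.66e-04) and ran from -0.62 to -0.55 as each array was left out.

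DJP1 (YIR004W, chromosome IX) encodes a cytosolic J protein needed for the import of peroxisomal proteins. It had log2 levels of 8.63, 8.54 and 8.70 with yEVenus and 8.92, 9.19 and 9.27 with the empty plasmid. The groups were apart, and the empty-plasmid arrays were the more spread. DJP1 fell by 0.50 on the log2 scale (SE 0.0944; limma, adjusted p = 0.00185), and by 0.36 with the length trend removed (limma, adjusted p = 0.0128).

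HLJ1 (YMR161W, chromosome XIII), the remaining class B gene, encodes a J protein anchored in the endoplasmic reticulum membrane with its J domain in the cytosol, where it takes part in the degradation of misfolded membrane proteins. It was the only one of the 10 with a difference above 0. Its log2 levels of 9.50, 9.71 and 9.59 with yEVenus overlapped with 9.64, 9.40 and 9.42 with the empty plasmid. The difference of 0.12 had a 95% interval of -0.08 to 0.31 (limma, adjusted p = 0.24). HLJ1 is also the shortest of the 10, at 675 nt, and with the length trend removed its difference was -0.0386 (limma, adjusted p = 0.665). Without empty-plasmid replicate 1 the difference was 0.19 and passed (limma, adjusted p = 0.0426).

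**Figure D2:**
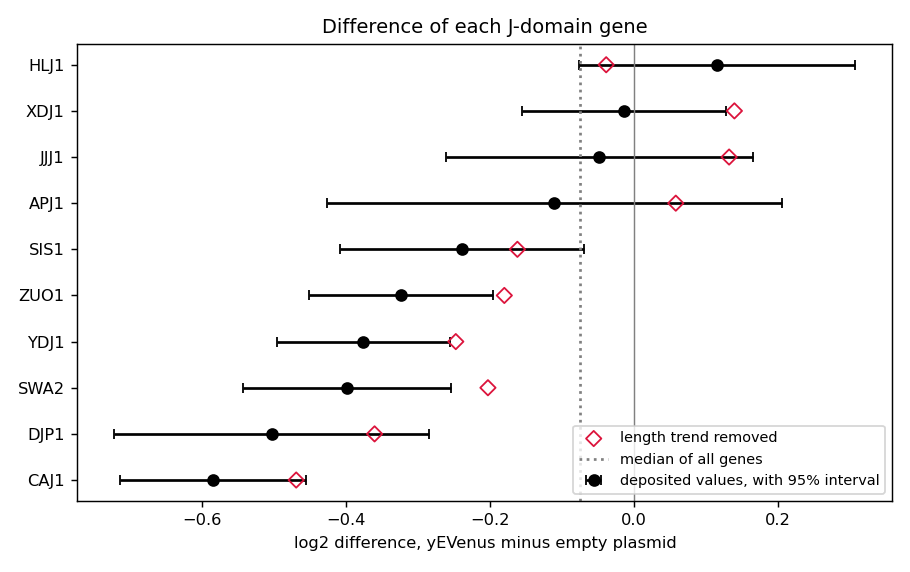
Log2 difference, yEVenus minus empty plasmid (horizontal axis), of each J-domain gene, from the deposited values with its 95% limma interval (filled circles) and with the length trend removed (open diamonds). The dotted line is the median of all genes. CAJ1 at -0.59 lies lowest and HLJ1 at 0.12 highest, and removal of the trend moved 9 of the 10 upward and HLJ1 downward.

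Of the class C genes, ZUO1 and SWA2 fell. ZUO1 (YGR285C, chromosome VII) encodes the J protein of the ribosome-associated complex, which it forms with the Hsp70 relative Ssz1, and which stimulates the Ssb Hsp70s at the tunnel exit of translating ribosomes. Its log2 level was 12.28, 12.21 and 12.29 on the yEVenus arrays, against 12.51, 12.61 and 12.63 on the empty-plasmid arrays. The groups were apart by more than the spread of either. The difference was -0.32 ± 0.0551 (SE; limma, adjusted p = 0.00112), and -0.18 with the length trend removed (limma, adjusted p = 0.018).

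SWA2 (YDR320C, chromosome IV) encodes the yeast auxilin, whose J domain recruits Hsp70 to uncoat clathrin vesicles. It had log2 levels of 8.22, 8.18 and 8.35 with yEVenus and 8.71, 8.64 and 8.60 with the empty plasmid, groups that did not overlap. SWA2 fell by 0.40 on the log2 scale (SE 0.0622; limma, adjusted p = 7.20e-04). At 2007 nt it is the longest of the 10, and its difference was -0.20 with the length trend removed (limma, adjusted p = 0.0129).

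JJJ1 (YNL227C, chromosome XIV) encodes a ribosome-associated J protein that acts in a late cytosolic step of large subunit assembly. Its log2 levels of 7.89, 7.98 and 8.05 with yEVenus lay within the 7.83, 8.06 and 8.17 of the empty plasmid. The difference of -0.048 had a 95% interval of -0.26 to 0.17 (limma, adjusted p = 0.657). It was above 0 with the length trend removed (0.13) and under median centring (0.0203) and cyclic loess (0.0315), never past the threshold.

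By class, 1 of 3 class A genes, 3 of 4 class B genes and 2 of 3 class C genes fell. The groups did not overlap for the 6 genes that fell, and they overlapped for the other 4; among all genes, the groups did not overlap and yEVenus was lower in 43.4%, higher in 31.5% and either in 74.9%. With the length trend removed, 5 of the 10 fell and 0 rose, where 33.1% of all genes fell and 31.7% rose, and the median of the 10 was -0.17 against -0.00939 over all genes. The 5 were those of the first fit other than SIS1. Among the 3100 genes with coding lengths within the range of the 10, 675 to 2007 nt, 44.0% fell and 25.0% rose in the fit of the deposited values. The part of the larger 3' to 5' gap in these falls was not tested. The removal of the length trend used coding length alone and no value of the gap. In bulk RNA, fewer cells that express a gene and less of its RNA per cell cannot be told apart.

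**Figure D3:**
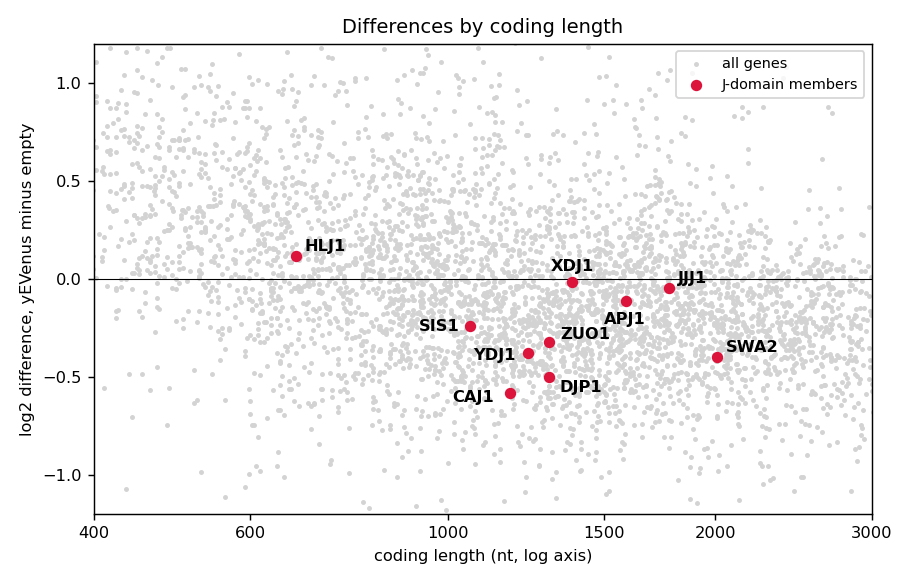
Log2 difference, yEVenus minus empty plasmid (vertical axis), against coding length (horizontal axis, log scale, nt) for all genes within the plotted range (grey; genes outside it are not drawn) and the J-domain genes (red). HLJ1, at 675 nt, lies above 0, and the 6 genes that fell lie between 1059 and 2007 nt.

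To set the changes of related genes side by side, ratios within an array were set between groups for 6 pairs that share a class, a place or a complex, with an exact two-sided permutation test whose smallest p is 0.1, so no pair could pass, and with Benjamini-Hochberg adjustment over the 6. For 4 of the 6 the groups did not overlap. That held for 74.9% of single genes, and the share among gene pairs in general was not computed. XDJ1 over YDJ1 had a within-array log2 ratio of -3.67, -3.69 and -3.74 with yEVenus and -4.11, -4.01 and -4.06 with the empty plasmid. The ratio was thus higher on every yEVenus array, by 0.36 ± 0.0362 (SE; exact p = 0.1, adjusted 0.15). That difference was 0.39 with the length trend removed.

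ZUO1 and SSZ1 encode the subunits of 1 complex. SSZ1 fell by 0.58 on the log2 scale (limma, adjusted p = 7.08e-05), and ZUO1 over SSZ1 was 0.79, 0.75 and 0.70 with yEVenus and 0.46, 0.49 and 0.53 with the empty plasmid. This ratio was higher on every yEVenus array, by 0.25 ± 0.0329 (SE; exact p = 0.1, adjusted 0.15). The difference was 0.23 with the length trend removed.

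JJJ1 over ZUO1, both ribosome-associated, differed by 0.28 ± 0.0852 (SE; exact p = 0.1, adjusted 0.15) and SIS1 over YDJ1 by 0.14 ± 0.0651 (SE; exact p = 0.1, adjusted 0.15), again without overlap. These were 0.31 and 0.0857 with the length trend removed. APJ1 over YDJ1 differed by 0.27 ± 0.17 (SE; exact p = 0.2, adjusted 0.24), with groups that overlapped. DJP1 over CAJ1 differed by 0.0817 ± 0.106 (SE; exact p = 1). That ratio was -1.68, -1.71 and -1.68 with yEVenus and -1.98, -1.66 and -1.68 with the empty plasmid, so that 1 control colony stood apart. Without empty-plasmid replicate 1 the difference was -0.0236. APJ1 over YDJ1 differed by 0.31 and DJP1 over CAJ1 by 0.11 with the length trend removed.

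**Figure D4:**
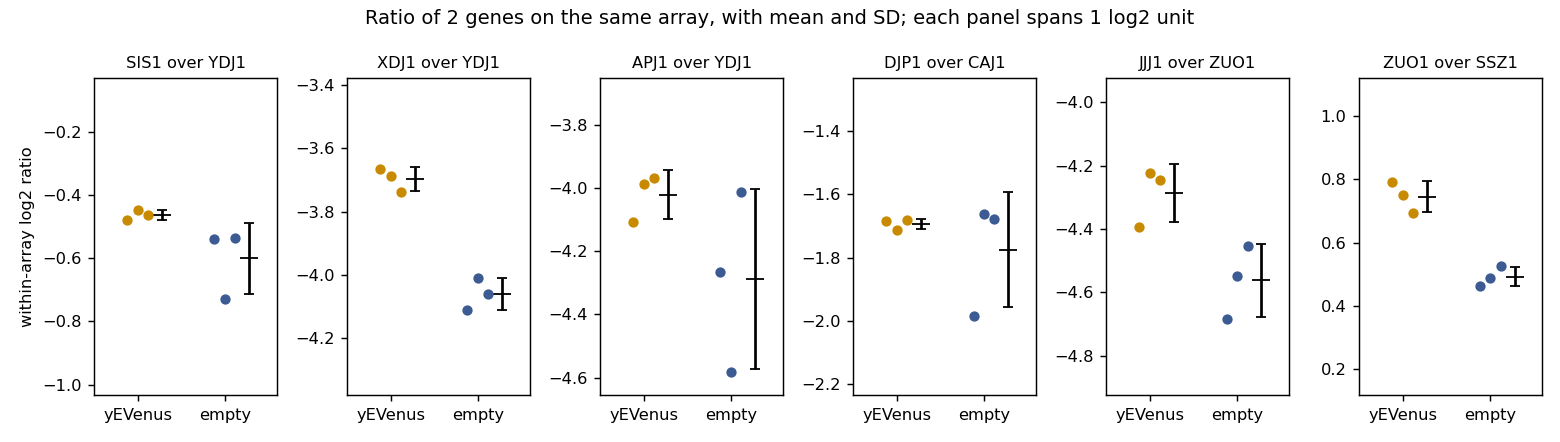
Within-array log2 ratio (vertical axis) of 2 genes on each array, yEVenus plasmid at the left and empty plasmid at the right of each panel. Points are arrays, bars are the mean and SD of 3 arrays, and all panels span the same range of log2 units. The groups are apart for SIS1 over YDJ1, XDJ1 over YDJ1, JJJ1 over ZUO1 and ZUO1 over SSZ1.

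The control colonies differed in the 10 genes without 1 common order. Empty-plasmid replicate 3 was highest and replicate 2 lowest in YDJ1, SIS1, CAJ1 and APJ1, as in 12.4% of all genes, and replicate 3 highest and replicate 1 lowest in XDJ1, DJP1, ZUO1 and JJJ1, as in 13.9% of all genes. In YDJ1 these colonies were close together (SD 0.0270, n = 3), and in APJ1 far apart. Of the related genes below, 3 that also had a wide control spread were picked out after their values were seen. BTN2, which encodes a sorting factor for misfolded proteins, had log2 levels of 11.52, 11.60 and 11.66 with yEVenus and 11.86, 11.34 and 12.30 with the empty plasmid. FES1, a gene for an Hsp70 nucleotide exchange factor, had 12.07, 12.16 and 12.11 with yEVenus and 12.56, 12.22 and 12.86 with the empty plasmid. HSP42, a small heat shock gene, had 11.36, 11.12 and 11.22 with yEVenus and 11.87, 11.77 and 12.29 with the empty plasmid. That the empty-plasmid colonies were the more spread in all 3, as in APJ1, goes with how they were picked and is no separate result.

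**Figure D5:**
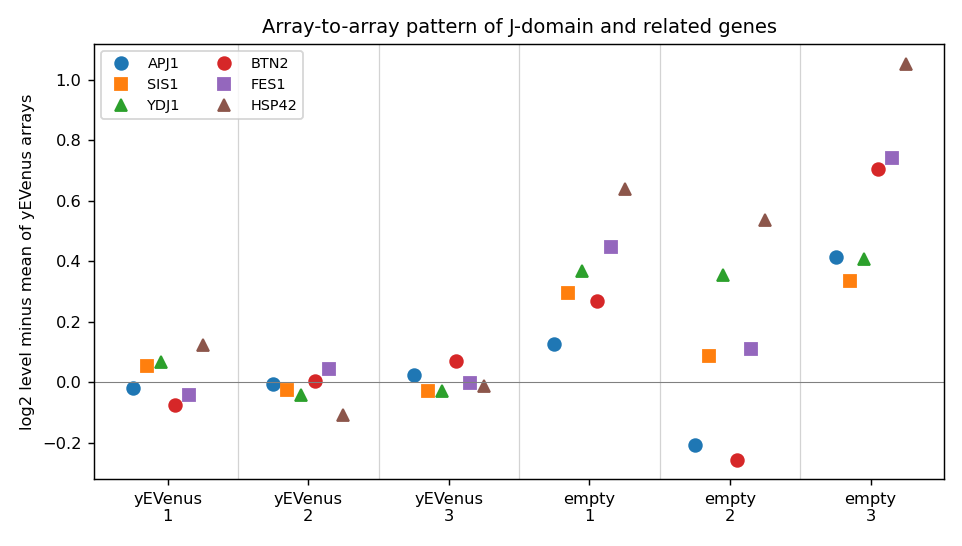
Log2 level minus the mean of the yEVenus arrays (vertical axis) of 3 J-domain genes and 3 related genes on each of the 6 arrays. Empty-plasmid replicate 2 is the lowest and replicate 3 the highest of the control arrays for each gene, with a small spread for YDJ1 and a wide one for APJ1 and BTN2. The 3 related genes were picked after their values were seen. That order of control arrays held in 4 of the 10 J-domain genes and 8 of the 28 related genes. The yEVenus arrays are less spread than the control arrays for each gene but YDJ1.

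Markers of stationary phase were higher on every yEVenus array in their mean level. Of 8 such genes 7 rose with yEVenus and 0 fell, where 29.3% of all genes rose and 41.0% fell. The mean log2 level of the 8 was 9.34 to 9.51 on the yEVenus arrays. It was 7.76 on empty-plasmid replicate 1, 8.48 on replicate 2 and 7.75 on replicate 3. With the length trend removed, 6 of the 8 rose and 0 fell, where 31.7% of all genes rose and 33.1% fell. The log2 of the summed level of the 8 was 12.84 to 12.94 with yEVenus and 11.95 to 12.37 with the empty plasmid. Their part in the differences of the J-domain genes was not tested. Mating type a markers, the genes of the a cell type, had a log2 summed level of 14.55 to 14.61 with yEVenus and 13.75 to 13.84 with the empty plasmid, and 5 of 7 rose and 1 fell (4 and 0 with the length trend removed). Markers of the alpha cell type had 8.98 to 9.10 with yEVenus and 8.86 to 9.03 with the empty plasmid, and 3 of 4 rose and 1 fell (2 and 1 with the length trend removed). The counts of both mating type lists are to be read against the same shares of all genes. MF(ALPHA)1, a defining alpha marker, had a mean log2 level of 3.98 with yEVenus and 3.32 with the empty plasmid, at or below the 4.32 that the controls without target reached.

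J-domain genes outside the 10 moved in both directions. Of 12 such genes 7 fell, 3 rose, and the median difference was -0.32 on the log2 scale, where 41.0% of all genes fell and 29.3% rose. With the length trend removed 6 fell and 2 rose, with a median of -0.21, where 33.1% of all genes fell and 31.7% rose. The counts of the lists that follow are to be read against the same shares. JJJ3, which encodes the J protein of diphthamide synthesis, rose 1.97-fold: its log2 level averaged 8.86 ± 0.086 with yEVenus and 7.88 ± 0.192 with the empty plasmid (SD, n = 3 each; limma, adjusted p = 7.91e-05). JJJ2, a J-domain gene of little-known function, fell by 0.81 on the log2 scale (limma, adjusted p = 9.30e-05), with levels of 6.12, 5.97 and 6.18 with yEVenus and 6.80, 7.04 and 6.85 with the empty plasmid. Both changes were larger than any among the 10, and both passed with the length trend removed, at 0.67 and -0.63.

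In the endoplasmic reticulum, 4 of 4 J-domain genes fell and the median difference was -0.36, but 2 of 4 fell with the length trend removed. SCJ1, for a lumenal partner of the Hsp70 Kar2, fell by 0.42 and SEC63, for a subunit of the translocon, by 0.20 (limma, adjusted p = 0.00201 and 0.0223). With the length trend removed SCJ1 was at -0.32 and SEC63 at -0.00047, the last no longer past the threshold (limma, adjusted p = 0.994). Mitochondrial J-domain genes numbered 5, of which 2 rose and 2 fell (median -0.31), and 1 rose and 2 fell with the length trend removed. JID1, for a mitochondrial J protein, rose by 0.47, and PAM18, for the J protein of the import motor, by 0.34 (limma, adjusted p = 0.00447 and 0.00198). After removal of the length trend JID1 was at 0.47 (limma, adjusted p = 0.00453) and PAM18, which is short at 507 nt, at 0.0189 (limma, adjusted p = 0.758).

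Among the Hsp70 partners, falls outnumbered rises in the fit of the deposited values, and fewer fell with the length trend removed. Among 7 cytosolic Hsp70 genes there were 5 falls and 0 rises (median -0.25). With the length trend removed 2 fell and 1 rose (median -0.064), where 33.1% of all genes fell. SSZ1 had the lowest difference, -0.58, and was at -0.41 with the length trend removed (limma, adjusted p = 3.28e-04). SSA1, for a major Hsp70 of the cytosol, fell by 0.41 (limma, adjusted p = 2.89e-04), and by 0.22 with the length trend removed (limma, adjusted p = 0.00619); its probe set may also read the near-identical SSA2. Of the 4 nucleotide exchange factor genes, 2 fell and 1 rose: SSE2, the paralogue of the deleted SSE1, fell by 0.85 (limma, adjusted p = 1.47e-04) and SNL1, for an exchange factor in the endoplasmic reticulum membrane, rose by 0.24 (limma, adjusted p = 0.00252). After removal of the length trend SSE2 was at -0.65 (limma, adjusted p = 5.75e-04) and SNL1 at -0.11 (limma, adjusted p = 0.0542). In that fit 2 exchange factor genes fell and the 1 that rose was the deleted SSE1, whose levels lay among the no-target controls. Of the 5 genes for aggregate handling and the heat shock factor, 3 fell and 0 rose, with HSP42 at -0.74 and HSP104, for the disaggregase, at -0.41 (limma, adjusted p = 0.00132 and 0.00144). After removal of the length trend 1 of the 5 fell, HSP42 at -0.64 (limma, adjusted p = 0.00399), and HSP104 was at -0.17 (limma, adjusted p = 0.0884).

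Genes whose profile over the 6 arrays was most like that of CAJ1, the member with the largest fall, were found by the Euclidean distance between log2 profiles centred on each gene's mean. The nearest were TTI1 at 0.0494, KAP104 at 0.061 and RGC1 at 0.0644 log2 units. Their log2 differences were -0.60, -0.57 and -0.58, beside the -0.59 of CAJ1. In a comparison of 2 groups such a distance mostly finds genes with a like difference, and their coding lengths, 3117, 2757 and 3252 nt, were over double the 1176 nt of CAJ1. Of the 10 J-domain genes, 4 lie on chromosome XIV, and the median difference over the 366 measured genes of that chromosome was -0.0431.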

How the data were processed

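The deposited values were log2 expression levels from Affymetrix arrays, 1 per probe set and array; the authors used RMA and R 3.2.0, per the submitters' processing notes. Filters and the build were not stated there. Of 5900 probe sets, 5498 name 1 gene; the brightest was kept for 47 genes with several. Symbols, chromosomes and lengths came from a RefSeq table of assembly R64, and lengths are called coding lengths. Differences between groups were tested in R 4.3.3 by limma 3.58.1 (lmFit, eBayes, 4 residual degrees of freedom, no block), with Benjamini-Hochberg adjustment over 5449 genes at 0.05. The length trend was a robust loess (span 0.5, degree 1) of each array's deviation from the gene mean on log2 length. Both steps were tried on simulated data with independent noise, a linear length trend and a far smaller share of changed genes than here. That trial does not show how they perform on these arrays. The number of arrays limits the precision. All 10 genes are named; of each related list, the 2 past the threshold with the smallest p are named, plus SSE1 and SSZ1. The genes and lists were chosen with earlier results of these data known. BTN2 and FES1 were picked after their values were seen, as was HSP42 for its control spread.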

Additional observations from a re-analysis of the deposited data

Results flagged for a closer look

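Control probe sets that enter none of the comparisons differed between the groups. A reporter probe set, 1 of 47 that the array carries for foreign marker sequences and with no gene in the annotation used here, had log2 levels of 8.39, 8.21 and 8.21 on the yEVenus arrays and 2.27, 2.65 and 2.503 on the empty-plasmid arrays, a measured difference of 5.79. The empty-plasmid values lay below the highest no-target control of each array, so the difference is only bounded: against those controls it was at least 4.28 log2 units. Whether this probe set reads a sequence of the plasmid is not settled by the annotation used here. Another was at 10.42, 10.59 and 10.25 with yEVenus and 8.38, 7.88 and 8.61 with the empty plasmid, a difference of 2.13. These stood out because every yEVenus array exceeded every control array by more than 1 log2 unit, as did the spiked poly-A transcript lys, with means of 6.67, 6.46 and 5.95 with yEVenus and 4.19, 3.61 and 4.60 with the empty plasmid, a difference of 2.23. The other spiked transcripts, phe, dap and thr, differed by 1.67, 1.34 and 1.31, also without overlap, and the hybridisation controls by 0.13 to 0.77. Both reporter probe sets above had a partner set named for the same sequence, and each partner had groups that overlapped. The partner of the first averaged 2.89 with yEVenus and 2.91 with the empty plasmid. That of the second averaged 13.28 with yEVenus and 13.29 with the empty plasmid. The search at 1 log2 unit looked only for values higher with yEVenus. Some reporter probe sets were lower without overlap, the most by 1.08 log2 units. The part of these in the differences of the J-domain genes was not tested.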

How the results depend on the processing

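Of 189 values of the 10 genes under alternative settings, 156 kept direction and side of the threshold. JJJ1 has no value with the dimmest 25% of genes left out. The count is no measure of robustness, as many settings left each difference unchanged and could not turn a sign. These were the probe set choices, with 1 probe set per gene, and the settings of block, threshold, minimum change and variance. With the length trend removed, 5 of the 10 kept direction and side. The falls of CAJ1, DJP1, SWA2, YDJ1 and ZUO1 did so under each setting run other than the 1.2-fold minimum, which only CAJ1 passed. That minimum left 1 fall among the 10, 1 rise and 5 falls among the 28 related genes, and 846 rises and 907 falls among all genes, against 1599 and 2236. Related genes had 17 falls, but 11 with the length trend removed and 10 at a threshold of 0.01. Under median centring 1846 of all genes rose and 1858 fell, with 13 falls among related genes and 5 among the 10. Under cyclic loess 1787 of all genes rose and 1897 fell, with 14 and 6 falls in those lists. With each array left out in turn, 5 to 7 of the 10 fell and 0 to 1 rose. Over those fits, 12 to 17 related genes fell and 4 to 5 rose, and over all genes 1939 to 2195 fell and 1420 to 1614 rose. Among the 10 genes and 6 ratios, signs turned only in genes with no call and in 1 ratio. Among related and marker genes, SSA2, SSB1, SNL1, MFA2 and MF(ALPHA)2 had calls and turned sign after removal of the length trend, to 0.012, 0.00575, -0.108, -0.0574 and -0.135, with no call there. In that fit XDJ1 was at 0.14, APJ1 at 0.0581, HLJ1 at -0.0386 and JJJ1 at 0.132, and the same with the replicate block added. Under cyclic loess XDJ1 was at 0.082 and JJJ1 at 0.0315, under median centring at 0.0547 and 0.0203, and XDJ1 at 0.0359 under quantile normalization. With single arrays left out XDJ1 ran from -0.064 to 0.0209, APJ1 from -0.27 to 0.0409 and JJJ1 from -0.145 to 0.0283. The difference of DJP1 over CAJ1 was -0.0236 without empty-plasmid replicate 1. The cause was not tested.

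In the labels, same-numbered samples share only a number, and whether they were paired is not stated. Their deviations correlated at 0.19, -0.13 and 0.20, and not every sample correlated best with its own number. With so few arrays these correlations cannot decide whether the samples were paired. With the replicate number as a block, 6 of the 10 fell, 1603 genes rose and 2224 fell, and no call among the 10 changed.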
